A study of Mus musculus with 2 samples.

Results

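The 10 genes described here encode inhibitory checkpoint molecules: the receptors Pdcd1 (PD-1), Ctla4, Lag3, Havcr2 (TIM-3), Tigit and Cd160, and the ligands Cd274 (PD-L1), Pdcd1lg2 (PD-L2), Cd80 and Cd86. They were taken by symbol from the 32285 genes counted, and all 10 were found. Their unique molecular identifiers (UMIs, 1 per captured RNA molecule) were summed over cell barcodes with at least 500 UMIs and 300 genes, within classes of cells gated on marker genes that include none of the 10. The libraries came from leukocytes of MC38 tumors, a mouse colon carcinoma line injected subcutaneously into C57BL/6J females of 6 to 8 weeks. In the ketogenic library the mice ate a ketogenic diet from day 4 after tumor injection, and in the normal library they ate a normal diet; all carried the same tumor. Tumors of 5 mice per diet were pooled on day 14, freed of dead cells, enriched for CD45 on magnetic beads and run as 1 Chromium 3' library per diet. Barcodes carry no mark of the mouse, so each diet is 1 sample, no difference below has a replicate check and none was tested.

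Checkpoint receptors sit on activated T cells and NK cells and dampen their signalling when they meet a ligand on another cell. PD-1 binds PD-L1 and PD-L2, whose genes are induced by interferon and other inflammatory signals, while CTLA-4 competes with the activating receptor CD28 for CD80 and CD86 on antigen-presenting cells. LAG-3, TIM-3, TIGIT and CD160 have ligands of their own, such as MHC class II for LAG-3 and HVEM for CD160, and in tumors several of these receptors accumulate together on chronically stimulated CD8 T cells.

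The ketogenic library held 42710007 UMIs and the normal library 37575996. After the limits on UMIs and genes, 5944 barcodes remained in the ketogenic and 5671 in the normal library, with medians of 3922 and 4200 UMIs. Only 7 barcode sequences were shared. Barcodes carrying markers of more than 1 lineage (16.8% in each library) were left out of the classes, which also removed much of each member's signal: 56.0% of all Pdcd1 UMIs in the ketogenic and 52.4% in the normal library lay in such barcodes. Of 16 classes, 13 had at least 20 cells in both libraries. The largest were NK cells (1645 ketogenic and 958 normal), monocytes (899 and 887), macrophages (347 and 841), CD8 T cells (440 and 367) and myeloid cells with little C1q (182 and 419). The share of mitochondrial UMIs in CD8 T cells was 1.61% in the ketogenic and 2.28% in the normal library, and the mitochondrial genes of this class had a median log2 ratio of -0.47; the part of this gap in any result below was not tested.

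Both PD-1 ligands are neighbours on chromosome 19 of the GRCm38 build, with 22.82 kb between the end of Cd274 (chr19:29367455-29388095, + strand) and the start of Pdcd1lg2 (chr19:29410919-29471161, + strand), and most of their UMIs came from different cell classes. The region around each RefSeq start (250 bases before it and 50 after, assembly GRCm38.p6) is shown for these ligands and for Cd160, the receptor with the largest ratio in CD8 T cells. Capitals mark the letters AANNGAAA, which interferon regulatory factors can bind, in both ligands, and TGTGGTT, a RUNX motif, in Cd160, each read on the opposite strand.
Cd274, chr19:29367188-29367487, + strand: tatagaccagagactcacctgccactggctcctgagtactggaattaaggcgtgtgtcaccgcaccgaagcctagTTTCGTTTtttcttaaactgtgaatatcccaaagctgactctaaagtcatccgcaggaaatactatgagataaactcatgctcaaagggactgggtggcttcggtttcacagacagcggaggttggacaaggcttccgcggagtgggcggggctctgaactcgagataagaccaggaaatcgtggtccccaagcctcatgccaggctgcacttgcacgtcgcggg
Pdcd1lg2, chr19:29410669-29410968, + strand: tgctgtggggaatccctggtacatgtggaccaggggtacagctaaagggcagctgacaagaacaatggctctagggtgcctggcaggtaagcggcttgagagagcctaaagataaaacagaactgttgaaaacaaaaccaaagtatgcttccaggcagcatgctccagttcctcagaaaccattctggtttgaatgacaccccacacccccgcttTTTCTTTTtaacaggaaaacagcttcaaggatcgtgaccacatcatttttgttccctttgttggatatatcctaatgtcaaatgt
Cd160, chr3:96829302-96829601, - strand: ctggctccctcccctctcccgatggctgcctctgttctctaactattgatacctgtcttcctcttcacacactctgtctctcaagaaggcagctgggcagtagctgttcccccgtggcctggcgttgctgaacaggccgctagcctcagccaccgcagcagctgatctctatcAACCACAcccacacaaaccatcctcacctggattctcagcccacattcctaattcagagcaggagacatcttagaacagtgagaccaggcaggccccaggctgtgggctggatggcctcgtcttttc
The Cd274 match lay at -175 to -168 from the RefSeq start and the Pdcd1lg2 match at -35 to -28. AANNGAAA occurred on either strand in 24.2% of 27025 mouse promoter windows of this length. The Cd160 match lay at -77 to -71 of the upstream start of 2 in RefSeq, and TGTGGTT occurred in 5.37% of windows. None of the 3 marked matches overlapped a match of the other motifs searched (TTCNNNGAA, in 8.47% of windows, and TGANTCA, in 7.93%, both strands each). RefSeq windows were matched for 8 of the 10 genes.

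A level is given in CPM, the UMIs of a gene scaled to a fixed total of UMIs per class, and a ratio as ketogenic over normal with its exact 95% interval. Intervals here cover counting error only, not differences between mice, tumors or library preparations. The log2 ratio adds 5 CPM to each side, so it understates differences of genes with low levels. A member was counted in a class when it had at least 50 UMIs over both libraries, and was called higher or lower from 1.5-fold on that log2 scale. Of 44 such pairs of member and class, 3 were higher in the ketogenic library, 4 were lower and 37 lay within 1.5-fold. The ketogenic level was above the normal one in 13 pairs and below it in 31, with a median log2 ratio of -0.13. Over all measured genes the median log2 ratio ran from -0.12 in macrophages to 0.12 in gamma-delta T cells. It was below 0 in each class except regulatory, other CD3 and gamma-delta T cells, for example at -0.11 in C1q-low myeloid cells and -0.08 in monocytes. Cd86 lay below in all 8 classes where it was measured, and Cd274 in 9 of 10.

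The calls are set here against the share of all measured genes called in the same class. In CD8 T cells 1 of 8 members was higher and 0 were lower, where 1.36% of genes were higher and 4.18% lower. In NK cells 0 of 8 members were called, where 0.261% were higher and 2.36% lower. In CD3 T cells with neither Cd8a nor the regulatory markers 1 of 5 members was lower, where 8.06% were higher and 6.69% lower. The 1 member measured in regulatory T cells was not called, where 8.74% were higher and 8.16% lower, and in gamma-delta T cells, where 14.2% were higher and 8.81% lower, 0 members had enough UMIs. In monocytes 1 of 4 members was lower, where 1.15% of genes were higher and 4.8% lower. In macrophages 0 of 5 were called, where 1.36% were higher and 9.17% lower. In C1q-low myeloid cells 1 of 4 was higher, where 2.17% were higher and 11.9% lower. In neutrophils 2 of 3 were lower, where 11.1% were higher and 12.7% lower. In plasmacytoid dendritic cells (DC) the 1 member measured was higher, where 9.06% were higher and 14.7% lower. Neither of the 2 members in CCR7-positive DC (9.92% higher and 20.6% lower) nor of the 2 in type 2 conventional DC (cDC2; 4.84% and 8.44%) was called, nor was the 1 in tumor or stromal cells (2.11% and 3.71%). With 1 to 8 members a class, no share of called members can be set apart from these backgrounds.

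**Figure D1:**
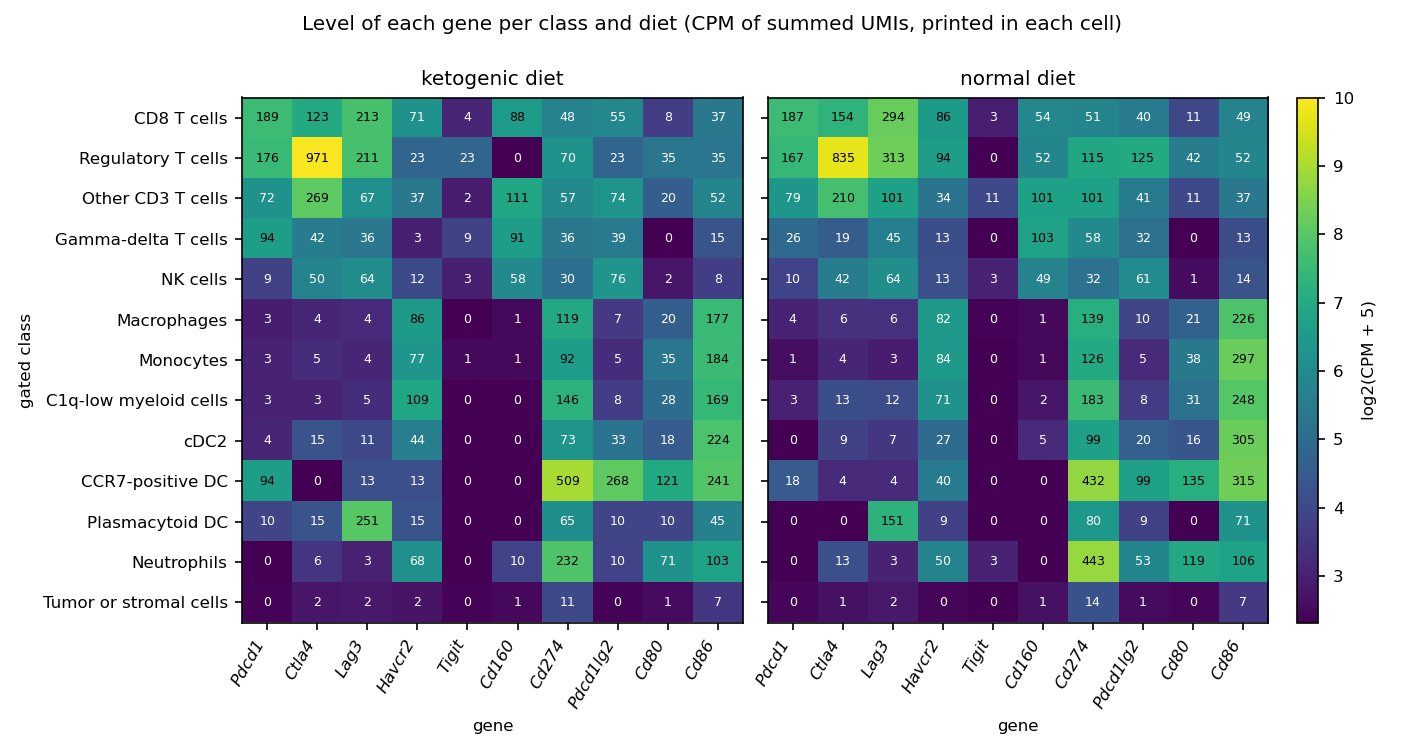
Levels of the 10 checkpoint genes (columns) in each cell class (rows) as CPM printed in each cell, colored by log2(CPM + 5), with the ketogenic library in the left panel and the normal library in the right one. Pdcd1 was highest in CD8 T cells at 189 CPM in the ketogenic and 187 CPM in the normal library, while Cd274 and Cd86 were highest in dendritic, neutrophil and other myeloid classes.

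Pdcd1, the receptor blocked by anti-PD-1 antibodies, was almost the same in the CD8 T cells of both libraries. It had 548 UMIs there in the ketogenic and 396 in the normal library, or 189 and 187 CPM, a ratio of 1.01 (0.886 to 1.15). That interval leaves out differences of 1.5-fold in either direction, for these libraries and the main settings. Over the alternative settings the log2 ratio ranged from -0.04 to 0.36, within 1.5-fold but with its upper end beyond that interval. With every cell thinned to 1000 UMIs, 19.3% of CD8 T cells in the ketogenic and 17.3% in the normal library held a Pdcd1 UMI, against 0.223% and 0.227% of monocytes, which should lack it; median depths before thinning were 4851 and 4594 UMIs in CD8 T cells and 3411 and 3584 UMIs in monocytes. CD8 T cells supplied 75.4% of the Pdcd1 UMIs of gated cells in the ketogenic and 76.2% in the normal library. Regulatory T cells came next in level, at 176 CPM (15 UMIs) in the ketogenic and 167 CPM (16 UMIs) in the normal library, with intervals that overlap those of CD8 T cells. Other CD3 T cells had 71.5 and 78.7 CPM, and NK cells 9.18 and 9.69 CPM. Gamma-delta T cells stood at 93.8 CPM in the ketogenic and 25.7 CPM in the normal library, from 31 and 4 UMIs, too few to be counted as measured. In bulk sums such as these, fewer cells with the transcript and less transcript per cell cannot be told apart.

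Ctla4, the receptor that competes for CD80 and CD86, was highest in regulatory T cells, the class known to hold it constitutively. It reached 971 CPM (83 UMIs) in the 26 ketogenic regulatory T cells and 835 CPM (80 UMIs) in the 24 normal ones, a ratio of 1.16 (0.845 to 1.60). A single barcode gave 38.6% of those UMIs in the ketogenic and 22.5% in the normal library, and the log2 ratio of 0.22 lay on the other side of 0 without the top barcode of each library (-0.14) and without cycling cells (-0.52). In CD8 T cells Ctla4 was at 123 CPM in the ketogenic and 154 CPM in the normal library, a ratio of 0.799 (0.686 to 0.931), but with barcodes of mixed lineage kept its log2 ratio was 0.06 in place of -0.31. In NK cells it stood the other way, at 49.6 and 41.7 CPM, a ratio of 1.19 (1.01 to 1.40). Other CD3 T cells had 269 CPM in the ketogenic and 210 CPM in the normal library. The CD8 difference was found in cells with few cell cycle transcripts (121 CPM ketogenic and 176 CPM normal), while cycling CD8 T cells had 129 and 107 CPM. No Ctla4 pair reached 1.5-fold, although other CD3 T cells did without cycling cells (log2 ratio 0.82) and after thinning (0.65).

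Lag3, a receptor for MHC class II, was the CD8 receptor with the lowest ratio among those measured. It had 617 UMIs in ketogenic and 622 in normal CD8 T cells, or 213 and 294 CPM, a ratio of 0.724 (0.646 to 0.810) and a log2 ratio of -0.46. The interval excludes 1 but the ratio reached 1.5-fold only after thinning (log2 ratio -0.86) and without cycling cells (-0.59). Among thinned CD8 T cells 17.0% in the ketogenic and 28.8% in the normal library held a Lag3 UMI. Non-cycling CD8 T cells carried the gap, with 226 CPM in the ketogenic and 344 CPM in the normal library, whereas cycling cells stood at 183 CPM in both. NK cells had 64.1 and 64.3 CPM, a ratio of 0.997 that shows no difference within its counting error. Within NK cells the level followed the granzyme split in both diets: cells with at least as many Gzmc as Gzma UMIs had 77.1 CPM in the ketogenic and 75.1 CPM in the normal library, and cells with more Gzma had 22.6 and 22.4 CPM. Other CD3 T cells had 27 UMIs in each library, or 66.6 CPM in the ketogenic and 101 CPM in the normal one; their ratio of 0.658 (0.371 to 1.17) was not called but passed the limit under 5 of the alternatives, for example at -0.71 with doubled gate thresholds. Plasmacytoid DC, in which Lag3 is a known marker, gave 50 UMIs in the ketogenic and 17 in the normal library, or 251 and 151 CPM. Their ratio of 1.67 was called higher, but its interval (0.944 to 3.08) includes 1 the class held 38 and 28 cells, and with every gate threshold doubled the log2 ratio of 0.72 was 0.46, below the call. The 6 NK marker genes together were at 166 CPM in ketogenic and 35.5 CPM in normal plasmacytoid DC, with 1 and 3 of them at 0; their part in the Lag3 value was not tested.

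Havcr2 encodes TIM-3, which terminally differentiated CD8 T cells and many myeloid cells carry. It was found at like levels in lymphoid and myeloid classes: 70.7 CPM in ketogenic and 85.5 CPM in normal CD8 T cells, 86.0 and 82.4 CPM in macrophages, and 77.4 and 83.6 CPM in monocytes. The intervals of these 3 classes overlap within each library. NK cells were lower, at 11.6 CPM in the ketogenic and 13.3 CPM in the normal library. C1q-low myeloid cells had 66 Havcr2 UMIs in the ketogenic and 115 in the normal library, or 109 and 70.6 CPM. That ratio of 1.54 (1.12 to 2.10) was the only Havcr2 pair called, at a log2 ratio of 0.59 close to the limit of the call. The call was lost with doubled gate thresholds (0.35), without the top barcode (0.58) and without cycling cells (0.56). Monocytes gave 32.2% of gated Havcr2 UMIs in the ketogenic and 26.9% in the normal library, from 899 and 887 cells, and macrophages 16.1% and 33.5%, from 347 and 841 cells.

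Cd160, a receptor for HVEM found on cytotoxic lymphocytes, was the member with the largest ratio in CD8 T cells. It had 254 UMIs there in the ketogenic and 115 in the normal library, or 87.6 and 54.3 CPM, a ratio of 1.61 (1.29 to 2.03) and a log2 ratio of 0.64. The call was lost with doubled gate thresholds (0.46) and after thinning (0.57). The 6 NK markers summed to 722 CPM in ketogenic and 582 CPM in normal CD8 T cells, with none at 0; their part in the Cd160 value was not tested. CD8 T cells with a UMI of Tcf7, Slamf6, Il7r or Lef1, genes of less differentiated T cells, had 92.4 CPM in the ketogenic and 55.9 CPM in the normal library, and those without had 77.5 and 52.1 CPM, so the ketogenic level was above in both fractions. Non-cycling cells had 94.8 and 54.1 CPM and cycling cells 71.7 and 54.8 CPM. After thinning, 5.98% of CD8 T cells in the ketogenic and 4.40% in the normal library held a Cd160 UMI, a smaller gap than the one in CPM. NK cells had 57.8 CPM in the ketogenic and 49.0 CPM in the normal library, a ratio of 1.18 (1.01 to 1.37), and other CD3 T cells had 111 and 101 CPM. Macrophages and monocytes held 1 and 2 Cd160 UMIs in the ketogenic library and 3 and 2 in the normal one. Barcodes with at most 100 UMIs, which sample free RNA, had 45.4 CPM of Cd160 in the ketogenic and 20.9 CPM in the normal library.

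Tigit, a receptor for CD155, was nearly undetected and was measured in no class. It had 98 UMIs in all barcodes kept from the ketogenic and 55 from the normal library, or 2.46 and 1.54 CPM over barcodes of all classes together. CD8 T cells held 11 and 6 of them (3.79 and 2.83 CPM) and NK cells 24 and 18 (2.94 and 3.29 CPM). Within a class these counts are too low to compare the diets.

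**Figure D2:**
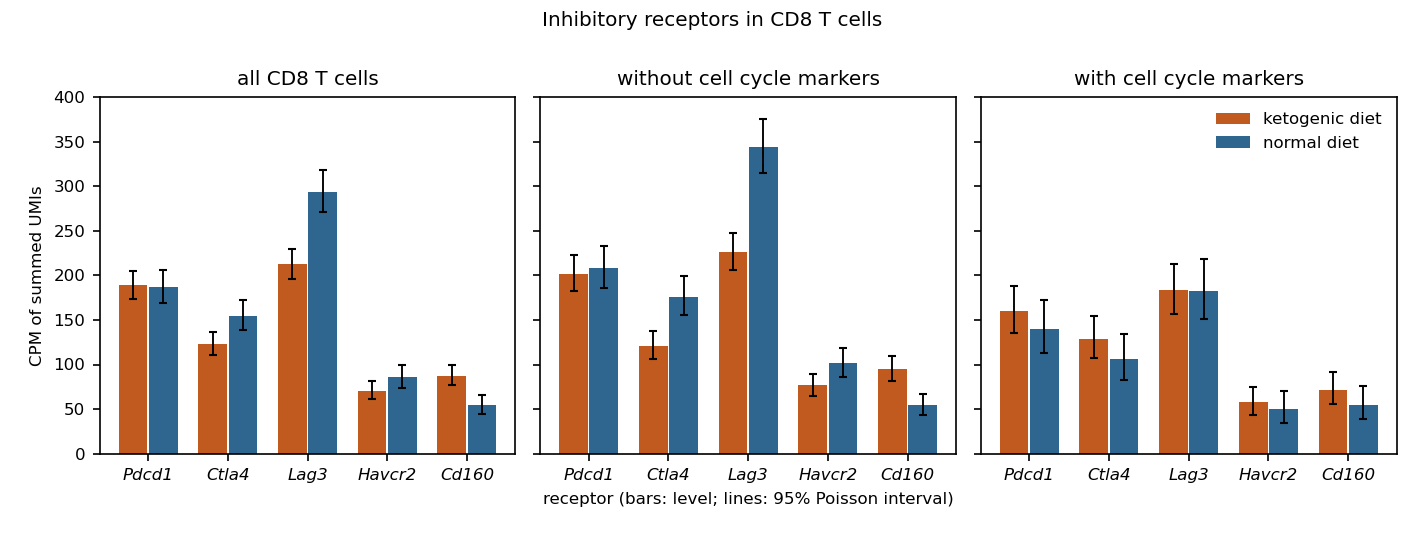
Checkpoint receptors in CD8 T cells (level in CPM, bars with exact 95% counting intervals, ketogenic left of normal), in all cells and in cycling and non-cycling cells. Lag3 stood at 226 CPM in ketogenic and 344 CPM in normal non-cycling cells and at 183 CPM in the cycling cells of both, while Cd160 stood at 94.8 and 54.1 CPM in non-cycling cells.

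More ketogenic than normal CD8 T cells held no receptor UMI. Of 435 thinned ketogenic cells 55.4% (50.6 to 60.1) had a UMI of none of the 6 receptors, against 45.6% (40.4 to 50.9) of 364 normal cells, intervals that just overlap. A single receptor was seen in 31.5% of ketogenic and 39.0% of normal cells, and 3 or more in 1.84% and 3.30%. In NK cells 84.8% of ketogenic and 85.3% of normal cells had none. The summed level of the 6 receptors was 687 CPM in ketogenic and 778 CPM in normal CD8 T cells, and 195 and 181 CPM in NK cells. At 1000 UMIs a cell without a UMI may still carry the transcript, so these are shares with a UMI and not shares of cells that use the gene. CD8 T cells with a Havcr2 UMI (25 ketogenic and 28 normal) had 3640 CPM of Gzmb, which encodes the killing protease granzyme B, in the ketogenic and 3786 CPM in the normal library. CD8 T cells without a Havcr2 UMI had 1937 CPM of Gzmb in the ketogenic and 2557 CPM in the normal library. In those with one, Lag3 was at 320 CPM (138 to 631, 8 UMIs) in the ketogenic library. It was at 679 CPM (409 to 1060, 19 UMIs) in the normal one. These intervals overlap, and the side is that of all CD8 T cells, of which these cells are a part.

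Cd274, the ligand of PD-1 that antibodies against PD-L1 block, was measured in 10 classes. CCR7-positive DC had 509 CPM in the ketogenic and 432 CPM in the normal library, a ratio of 1.18 (0.788 to 1.73), the only class above 1. Neutrophils had 72 UMIs in the ketogenic and 134 in the normal library, or 232 and 443 CPM, a ratio of 0.524 (0.388 to 0.702) and a log2 ratio of -0.92. In the normal library the neutrophil and CCR7-positive DC levels had overlapping intervals, and in the ketogenic library the DC level stood above. After these came C1q-low myeloid cells (146 CPM ketogenic and 183 CPM normal), macrophages (119 and 139 CPM) and monocytes (92.4 and 126 CPM). cDC2 had 73.3 and 99.4 CPM, and the intervals of macrophages and monocytes overlap in the normal library. The monocyte ratio of 0.737 (0.636 to 0.852) and the C1q-low ratio of 0.800 lay within 1.5-fold, and with doubled gate thresholds the monocytes were called lower (log2 ratio -0.60). Other CD3 T cells had 23 and 27 UMIs, or 56.7 CPM in the ketogenic and 101 CPM in the normal library, and were called lower at 0.560 although the interval (0.307 to 1.02) includes 1; with mixed barcodes kept (log2 ratio -0.46) or doubled gate thresholds (-0.15) this call was lost. In that class the 3 myeloid markers summed to 883 CPM in the ketogenic and 573 CPM in the normal library and the 4 MHC class II genes to 360 and 1638 CPM, with none at 0; their part was not tested. CD8 T cells stood at 47.9 and 51.0 CPM, NK cells at 29.6 and 32.0 CPM, and tumor or stromal cells at 11.1 and 14.1 CPM.

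The neutrophil class was small (130 ketogenic and 171 normal cells) and its other markers also differed. The 5 macrophage markers summed to 579 CPM in ketogenic and 892 CPM in normal neutrophils, the 5 monocyte markers to 7808 and 3865 CPM, and the 4 MHC class II genes to 2182 and 3812 CPM; 1 macrophage marker was at 0 in the ketogenic library, and no other gene of these lists was. In neutrophils with under 1000 CPM of the macrophage markers, a subset chosen after the data were seen (109 ketogenic and 141 normal cells), Cd274 stood at 228 and 471 CPM, a ratio of 0.483 (0.341 to 0.678). The difference was as large in that subset, but at median depths of 1206.5 and 1006 UMIs this limit rests on few macrophage UMIs per barcode. It also leaves RNA of other myeloid classes in place. The markers of CCR7-positive DC summed to 74.0 CPM in all ketogenic and 198 CPM in all normal neutrophils. The part of such RNA in the Cd274 values was not tested. After thinning, 15.9% of ketogenic and 34.5% of normal neutrophils held a Cd274 UMI, the same direction as in CPM; 82 and 87 neutrophils were deep enough to be thinned. Cd80, the higher-affinity ligand of CTLA-4, was called lower in the same class with 22 UMIs in the ketogenic and 36 in the normal library, or 70.8 and 119 CPM, but its ratio of 0.595 (0.334 to 1.04) has an interval that includes 1. Elsewhere Cd80 differed little: 35.4 CPM in ketogenic and 38.3 CPM in normal monocytes, 19.9 and 20.9 CPM in macrophages and 28.0 and 31.3 CPM in C1q-low myeloid cells. CCR7-positive DC gave 9 UMIs of Cd80 in the ketogenic and 30 in the normal library (121 and 135 CPM), too few to be counted as measured.

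Cd86, the other ligand of CTLA-4 and CD28, was lower in the ketogenic library in each of the 8 classes where it was measured, and past 1.5-fold on the log2 scale in monocytes alone. Monocytes had 636 UMIs in the ketogenic and 1054 in the normal library, or 184 and 297 CPM, a ratio of 0.621 (0.562 to 0.686) and a log2 ratio of -0.67. Macrophages had 177 CPM in the ketogenic and 226 CPM in the normal library (ratio 0.782, 0.682 to 0.894), and C1q-low myeloid cells 169 and 248 CPM (ratio 0.683). CCR7-positive DC had 241 and 315 CPM (ratio 0.766, 0.429 to 1.30), cDC2 224 and 305 CPM, and neutrophils 103 and 106 CPM (0.974, 0.578 to 1.64). The intervals of CCR7-positive DC and neutrophils include 1. In CCR7-positive DC the 3 myeloid markers summed to 134 CPM in the ketogenic and 2792 CPM in the normal library, and their part in the Cd86 and Cd274 values was not tested. With doubled gate thresholds cDC2 were also called lower (log2 ratio -0.82). Neutrophils crossed to a ratio of 1.19 in that subset, and the monocyte call was lost after thinning (log2 ratio -0.55). The share of thinned monocytes with a Cd86 UMI was 16.6% in the ketogenic and 24.1% in the normal library. CD8 T cells had 36.9 and 49.1 CPM of Cd86 and NK cells 8.32 and 14.4 CPM, the NK pair past 1.5-fold with a pseudocount of 1 CPM (log2 ratio -0.73). Those lymphocytes also held myeloid RNA: the 3 myeloid markers summed to 189 CPM in ketogenic and 392 CPM in normal NK cells, and to 169 and 294 CPM in CD8 T cells, with none of the 3 at 0 in either. The part of that RNA in the lymphocyte values of Cd86 was not tested.

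Monocytes were split after the data were seen into cells led by the interferon-response genes Cxcl10, Gbp2 and Ifit2 and cells led by Hp, Chil3 and Fn1. The first made up 40.0% of ketogenic and 59.0% of normal monocytes. In them Cd86 was at 223 CPM in the ketogenic and 368 CPM in the normal library, a ratio of 0.605 (0.532 to 0.688). In cells led by Hp, Chil3 and Fn1 it was at 154 and 176 CPM, a ratio of 0.873 (0.733 to 1.04). Cd274 stood at 146 and 161 CPM in the first and at 50.3 and 65.8 CPM in the second, ratios of 0.907 (0.763 to 1.07) and 0.764 (0.566 to 1.03). The part of this mix in the monocyte values was not tested.

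**Figure D3:**
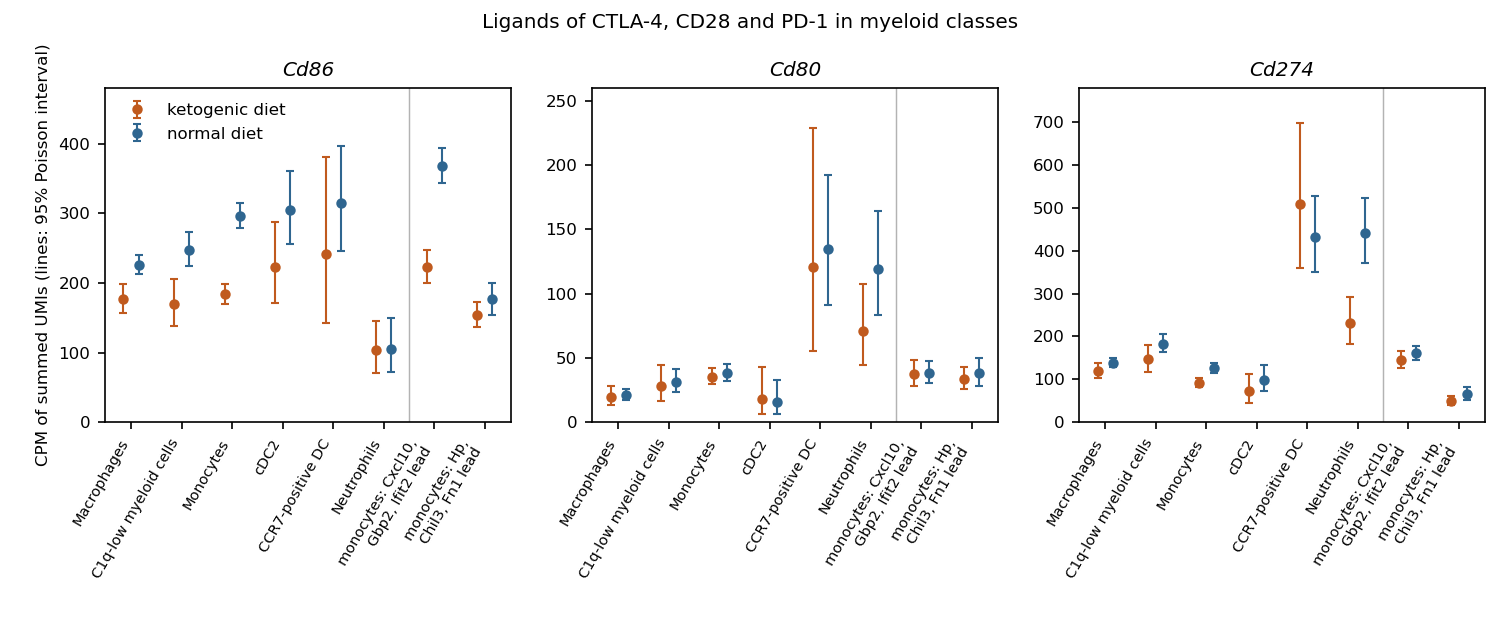
Cd86, Cd80 and Cd274 in myeloid classes and in the monocyte subsets right of the vertical line (CPM, points with exact 95% counting intervals, ketogenic left of normal). Cd86 was below in the ketogenic library in each class drawn, for example 184 CPM against 297 CPM in monocytes, but only 103 against 106 CPM in neutrophils. Neutrophil Cd274 stood at 232 CPM in the ketogenic and 443 CPM in the normal library.

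Pdcd1lg2, the other ligand of PD-1, had most of its gated UMIs in NK and CD8 T cells, unlike Cd274. NK cells had 620 UMIs in the ketogenic and 332 in the normal library, or 75.9 and 60.7 CPM, a ratio of 1.25 (1.09 to 1.43), and they supplied 68.6% of gated UMIs in the ketogenic and 57.8% in the normal library. CD8 T cells had 55.2 and 40.2 CPM, a ratio of 1.37 (1.05 to 1.81). Macrophages had only 11 UMIs in the ketogenic and 46 in the normal library (7.06 and 10.2 CPM). After thinning, 7.70% of ketogenic and 6.33% of normal NK cells held a Pdcd1lg2 UMI, and 0.668% and 0.455% of monocytes. The 7 markers of CCR7-positive DC summed to 18.4 CPM in ketogenic and 12.1 CPM in normal NK cells, with 1 at 0 in each. CCR7-positive DC themselves had 20 UMIs of Pdcd1lg2 in the ketogenic and 22 in the normal library, or 268 and 98.9 CPM, below the 50 UMIs needed to count them as measured; the 3 C1q genes summed to 13.4 CPM in that ketogenic class, with 2 at 0, and to 1281 CPM in the normal one. Pdcd1lg2 is overlapped on the opposite strand by A930007I19Rik for 6412 bases, and the strand setting of the counting is not given in the sources used here. That antisense gene had 8 UMIs in ketogenic and 1 in normal NK cells and 6 and 4 in CD8 T cells, but 11 and 83 in macrophages and 26 and 49 in monocytes, at least as many as Pdcd1lg2 itself there, so the Pdcd1lg2 values of macrophages and monocytes are uncertain. Cd274 shares 11055 bases with the antisense gene AC119228.1, Cd160 shares 68 bases with Pdzk1 on the opposite strand, and Ctla4 shares 525 bases with the pseudogene Rpl18-ps1 on its own strand.

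Free RNA differed between libraries as well. In barcodes with at most 100 UMIs, Pdcd1lg2 was at 48.1 CPM in the ketogenic and 27.6 CPM in the normal library, and Pdcd1 was at 50.8 and 34.4 CPM. The ligands of myeloid cells stood the other way there: Cd274 had 45.8 CPM in the ketogenic and 86.6 CPM in the normal library, and Cd86 had 62.7 and 124 CPM. For Pdcd1lg2, Cd274 and Cd86 this is the side on which most of their classes stood. The same held for Cd160 (45.4 and 20.9 CPM), Cd80 (10.4 and 20.3 CPM), Ctla4 (78.5 and 65.7 CPM) and Havcr2 (37.3 and 55.3 CPM). For Pdcd1 and Lag3 (60.8 and 52.2 CPM) most classes stood on the other side. Subtracting 5% of that profile from each class ended none of the 7 calls. That 5% is a fixed setting and not an estimate of the free RNA in a class. The part of free RNA in the calls was not tested.

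**Figure D4:**
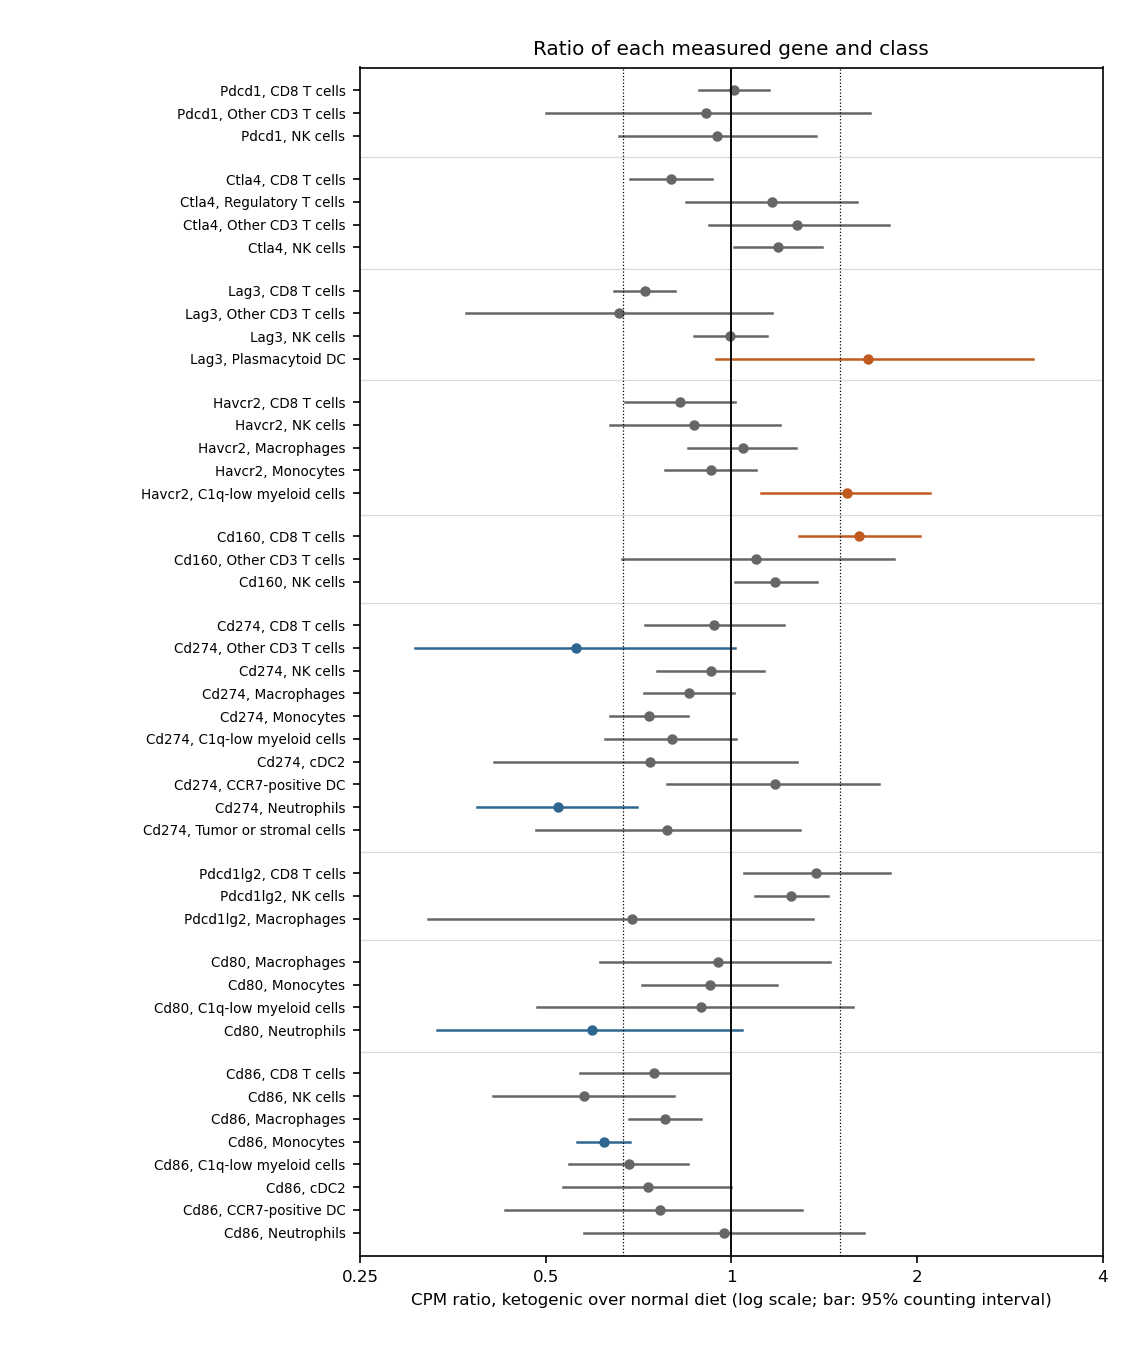
CPM ratio, ketogenic over normal, of each checkpoint gene in each class where it was measured (log axis, points with exact 95% counting intervals, dotted lines at 1.5-fold). Calls add 5 CPM to each side, so a point of a low level may pass a dotted line uncalled (grey). Most of the 44 points lie below 1, and the 3 called higher are Cd160 in CD8 T cells (1.61), Havcr2 in C1q-low myeloid cells (1.54) and Lag3 in plasmacytoid DC (1.67).

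Which cells supplied a member followed both its level and the cell numbers of a library. Of gated Ctla4 UMIs, CD8 T cells held 35.2% in the ketogenic and 42.5% in the normal library, and NK cells 39.9% and 29.6%. Of Lag3 UMIs, CD8 T cells held 47.8% and 55.3%, and NK cells 40.6% and 31.3%. NK cells held 58.3% of Cd160 UMIs in the ketogenic and 60.4% in the normal library. Monocytes gave 26.4% of Cd274 UMIs in the ketogenic and 21.9% in the normal library, macrophages 15.3% and 30.8%, and neutrophils 5.97% and 6.59%. Monocytes gave 46.3% and 35.6% of Cd86 UMIs in the ketogenic and normal libraries. The macrophage share was lower in the ketogenic library, where macrophages were also fewer.

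**Figure D5:**
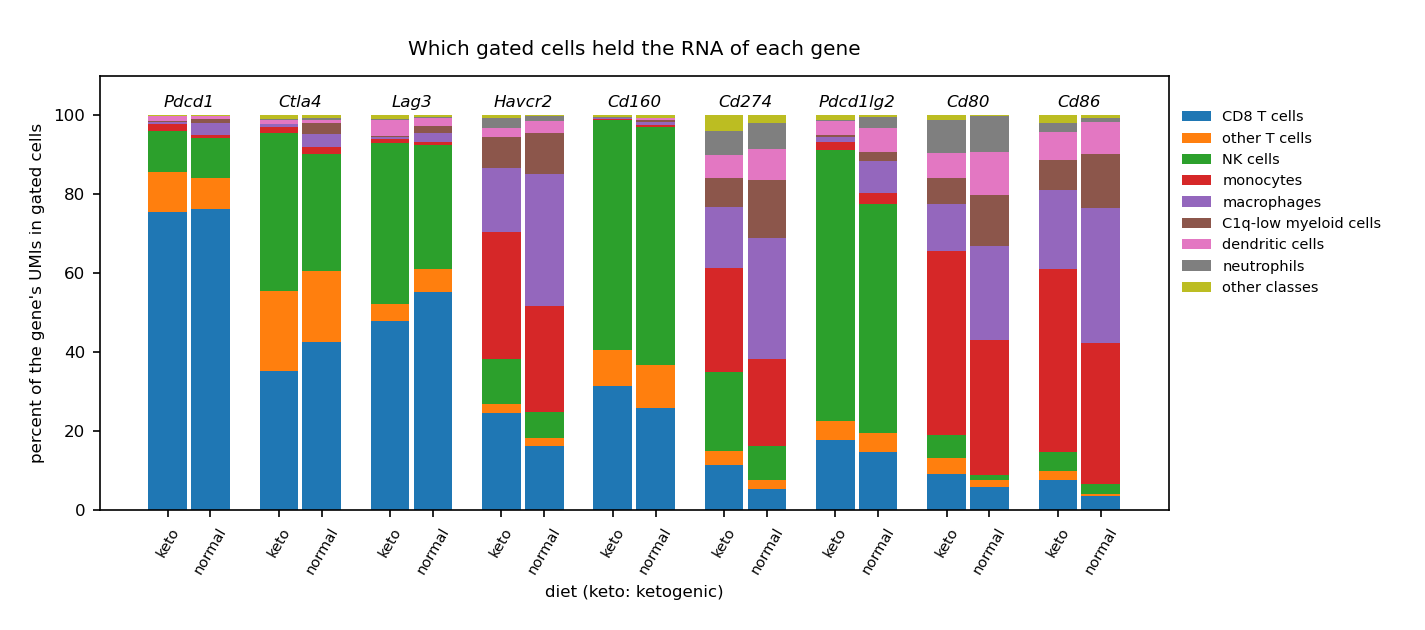
Share of each checkpoint gene's UMIs supplied by each class of gated cells (percent of gated UMIs, ketogenic bar left of normal bar). Macrophages gave 15.3% of ketogenic and 30.8% of normal Cd274 UMIs, and NK cells gave 68.6% of ketogenic and 57.8% of normal Pdcd1lg2 UMIs.

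Genes around the checkpoint pathway were counted in 3 lists. The list of checkpoint partners and costimulators (42 of 44 genes in the files) had 0 of 28 measured genes higher and 1 lower in CD8 T cells, where 1.36% of all genes were higher and 4.18% lower, at a median log2 ratio of -0.11 against -0.07 over all genes. In NK cells 0 of 28 were higher and 3 lower, where 0.261% and 2.36% of all genes were (median -0.12 against -0.08). In macrophages 1 of 25 was higher and 5 were lower, where 1.36% and 9.17% of all genes were (-0.25 against -0.12). In monocytes 2 of 26 were higher and 4 lower, where 1.15% and 4.8% of all genes were (-0.20 against -0.08). These counts are small, and none was set apart from its background by a test. Sirpa, the myeloid receptor for the "do not eat me" signal CD47, was the 1 CD8 gene called, at 8.62 CPM in the ketogenic and 17.0 CPM in the normal library, and it was also lower in NK cells at 2.69 and 10.2 CPM, beside the myeloid marker sums given above. In NK cells the inhibitory receptor gene Pecam1 stood at 56.9 CPM in the ketogenic and 92.3 CPM in the normal library, and Lgals3, whose product galectin-3 binds LAG-3, at 339 and 512 CPM. In macrophages the genes furthest from 1 were the NK receptor gene Klrd1 (14.8 CPM ketogenic and 47.3 CPM normal), the T cell costimulator Icos (5.13 and 14.9 CPM) and the inhibitory receptor gene Siglece (7.70 and 18.0 CPM). The 6 NK markers summed to 16.0 CPM in ketogenic and 28.0 CPM in normal macrophages and the 4 T cell markers to 18.0 and 41.5 CPM, with 1 NK marker at 0 in the ketogenic library; their part in Klrd1 and Icos was not tested.

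In monocytes Icos stood the other way, at 12.5 CPM in the ketogenic and 3.10 CPM in the normal library, with the T cell markers at 36.2 and 21.4 CPM and none at 0. Pecam1 was at 5.80 and 12.9 CPM and Inpp5d, the phosphatase SHIP1 of inhibitory receptors, at 90.1 and 146 CPM. Vsir, which encodes the checkpoint molecule VISTA, was lower in C1q-low myeloid cells at 140 CPM in the ketogenic and 239 CPM in the normal library, a ratio of 0.584 (0.456 to 0.740). In neutrophils 0 of 13 measured genes of this partner list were higher and 3 lower, where 11.1% and 12.7% of all genes were. The list median there was 0.01 against -0.04 over all genes. The 3 lower genes were Vsir at 138 and 248 CPM, Sirpa at 113 and 235 CPM and the inhibitory receptor gene Lilr4b at 418 and 737 CPM. In plasmacytoid DC Klrd1 was at 488 CPM in the ketogenic and 284 CPM in the normal library, beside the NK marker sums given above, and the inhibitory receptor gene Lair1 at 533 and 888 CPM. In other CD3 T cells Hmgb1, a ligand of TIM-3, was at 496 and 292 CPM.

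The 26 regulators of T cell exhaustion and memory showed no call in CD8 T cells: 0 of 24 measured genes were higher and 0 lower, at a median of -0.19 against -0.07 over all genes. In NK cells 1 of 23 was higher, where 0.261% of all genes were: Nr4a1, a gene induced early after receptor signalling, at 124 CPM in the ketogenic and 77.3 CPM in the normal library (ratio 1.61, 1.43 to 1.81). In other CD3 T cells the memory factor gene Tcf7 was lower at 74.0 and 131 CPM. In gamma-delta T cells (93 ketogenic and 34 normal) 4 of 9 genes were higher and 2 lower, where 14.2% and 8.81% of all genes were. The 3 furthest from 1 were Cxcr6 at 469 and 70.7 CPM, Maf at 227 and 51.4 CPM and Il7r at 405 and 148 CPM. Their normal values rest on 11, 8 and 23 UMIs. In macrophages 1 of 15 genes of this list was higher and 4 were lower, where 1.36% and 9.17% of all genes were. Monocytes had 1 of 16 higher and 2 lower (1.15% and 4.8% of all genes). C1q-low myeloid cells had 1 of 13 higher and 3 lower (2.17% and 11.9%). The higher gene was Id3, a regulator of lymphoid and myeloid differentiation, in macrophages (37.2 and 15.1 CPM), monocytes (130 and 60.8 CPM) and C1q-low myeloid cells (115 and 36.8 CPM). Id3 was also higher in tumor or stromal cells (47.5 and 20.3 CPM).

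The 24 genes of the interferon and related input to PD-L1 had a median below that of all genes in monocytes, macrophages and CD8 T cells. The list also holds Ciita and Nlrc5, regulators of MHC genes, so its counts are not of PD-L1 input alone. In C1q-low myeloid cells the medians were nearly equal. The list median lay above that of all genes in other CD3 T cells (0.08 against 0.03) and in tumor or stromal cells (-0.004 against -0.047), and below it in the remaining classes. In monocytes 0 of 21 were higher and 2 lower, where 4.8% of all genes were lower, at a median of -0.25 against -0.08. In macrophages 0 of 22 were higher and 6 lower, where 9.17% of all genes were lower, at -0.30 against -0.12. In C1q-low myeloid cells 0 of 20 were higher and 3 lower, where 11.9% of all genes were lower, at -0.12 against -0.11. In CD8 T cells 1 of 21 was higher and 2 were lower, where 1.36% and 4.18% of all genes were, at -0.15 against -0.07. Ciita, the master switch of MHC class II genes, was at 8.11 CPM in ketogenic and 27.6 CPM in normal monocytes and at 16.0 and 34.9 CPM in macrophages. Stat2, a mediator of type I interferon signalling, was at 166 and 270 CPM in monocytes, at 118 and 219 CPM in C1q-low myeloid cells and at 37.2 and 64.7 CPM in CD8 T cells. Nfkb1, a subunit of NF-kappa-B, was at 62.9 CPM in ketogenic and 124 CPM in normal macrophages and at 90.5 and 141 CPM in C1q-low myeloid cells. Nlrc5, the activator of MHC class I genes, was at 34.0 and 58.9 CPM in macrophages and at 48.3 and 75.6 CPM in CD8 T cells, where Socs3, a brake on cytokine signalling, stood at 64.1 and 38.7 CPM. In neutrophils 1 of 17 was higher and 1 lower, where 11.1% and 12.7% of all genes were: Irf8 was at 277 CPM in the ketogenic and 172 CPM in the normal library, and Cmtm6, which stabilises PD-L1 at the cell surface, was at 90.1 and 145 CPM with an interval of the ratio (0.372 to 1.02) that includes 1.

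Genes whose levels most resembled each member's were found over 19 points, each a class with at least 50 cells in 1 library, by Pearson's r of log2 levels among 9425 genes. These points share libraries and marker classes, so r is a description and has no test. Pdcd1 was most like Tox (0.976), Camk4 (0.964) and Cxcr6 (0.955). Ctla4 was most like Tnfrsf18 (0.971), Lag3 most like Abcb9 (0.959), and Cd160 most like Gimap1 (0.981). Among ligands Cd274 was most like Ccrl2 (0.958), Cd80 most like Gbp5 (0.960), Cd86 most like Pld4 (0.970) and Pdcd1lg2 most like Stat4 (0.935). Havcr2 had the loosest partner, Glrx (0.891). Between members, Ctla4 and Lag3 had an r of 0.929 and Cd274 and Cd80 of 0.927, while Pdcd1lg2 had 0.824 with Ctla4 and -0.21 with Cd86.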

How the data were processed

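Each library was sequenced on the 10x Chromium platform, and the authors deposited gene by barcode matrices of raw UMI counts; Cell Ranger 4 is named per the file headers, while Cell Ranger 6.0.0, Seurat 3.2.0 and the mm10 (GRCm38) build are named per the submitters' processing notes. Barcodes needed 500 UMIs and 300 genes to be kept, and those with at most 10% mitochondrial UMIs were put into 16 classes by CPM of marker genes; the thresholds were set after the cells were seen. Barcodes with markers of several lineages were left out as possible doublets, with no doublet caller run. The members and lists were chosen with earlier results of these data known. Counts were summed per class and library. Levels have exact Poisson intervals, ratios exact conditional binomial intervals and shares of cells exact Clopper-Pearson intervals (scipy 1.17.1, numpy 2.4.6, pandas 2.3.3, Python 3.11.15). The log2 ratio used 5 CPM, a class needed 20 cells per library, a gene 50 UMIs, and calls needed 1.5-fold. For shares of cells every cell was thinned to 1000 UMIs. The ratio step was tested on simulated data. Of each list, up to 3 genes furthest from 1 per class were eligible to be named. This held for the larger classes and those where a member was called. For the exhaustion and memory list, gamma-delta T cells and Id3 in tumor or stromal cells were added. Sh2d1a, Klrd1 in C1q-low cells, Nfatc1, Nfat5, Nr4a2, Id2, Entpd1, Rbpj and Stat3 also met that rule. They are named without values, and not all of their classes have a list count above. Of the genes most like each member, those with the highest r are named. With 1 library per diet no test between diets was possible.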

Additional observations from a re-analysis of the deposited data

Results flagged for a closer look

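Ctla4 was flagged because the counting interval of its ratio lay above 1 in 1 class and below 1 in another. Other members also had ratios on both sides of 1, but not with such intervals. Ctla4 was at 49.6 CPM in ketogenic and 41.7 CPM in normal NK cells, a ratio whose interval (1.01 to 1.40) only just leaves out 1. In CD8 T cells it was at 123 and 154 CPM (interval 0.686 to 0.931). The log2 ratio in NK cells minus that in CD8 T cells was 0.54. With barcodes of mixed lineage kept the CD8 log2 ratio was 0.06, on the same side as in NK cells, and cycling CD8 T cells stood at 129 and 107 CPM, also on that side. With 1 library per diet this difference was not tested.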

How the results depend on the processing

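No paired analysis was possible because each diet is 1 library of pooled mice, and no replicate could be left out. The main settings gave 3 higher and 4 lower member calls, against 1 and 2 when 200 UMIs were required. Thinning all cells to 1000 UMIs also gave 1 and 2, but partly of other pairs. Ctla4 in other CD3 T cells (log2 ratio 0.65) and CD8 Lag3 (-0.86) were new there, and CD8 Cd160 and monocyte Cd86 were lost. With every gate threshold doubled 2 were higher and 7 lower. None of the 3 main higher calls was kept then (Cd160 0.46, Havcr2 0.35, Lag3 0.46). At 200 UMIs 36 genes of the pathway lists were called in place of 87, and 1368 of all genes in place of 4967, since fewer genes were then counted. Of the 44 main pairs, 21 were no longer measured at 200 UMIs, 22 after thinning and 5 with doubled gates. Beyond that loss, the cause of the changes with thinning and gates was not tested. No called pair changed direction under any alternative run. Of the 7 called pairs, Cd274 and Cd80 in neutrophils kept the call under each alternative in which they were measured, and the other 5 lost it under at least 1. Leaving out settings added after seeing the data, neutrophil Cd80 was measured in 8 settings and neutrophil Cd274 in 12, the main one included. Over the alternatives other than those added after seeing the data, the log2 ratio of monocyte Cd86 ranged from -0.68 to -0.55 (-0.19 in the monocytes led by Hp, Chil3 and Fn1, an added split), neutrophil Cd274 from -1.32 to -0.91, CD8 Cd160 from 0.46 to 0.76, and CD8 Lag3 from -0.86 to -0.29, while CD8 Ctla4 (-0.53 to 0.06) and regulatory T cell Ctla4 (-0.53 to 0.26) crossed 0. Shares of cells with a UMI moved with the thinning depth, in 64 of 88 values at 2000 UMIs. Depth limits Tigit, measured in no class, and the small classes: 0 of 10 members were measured in gamma-delta T cells, 1 in regulatory T cells and in plasmacytoid DC, and 2 in cDC2 and in CCR7-positive DC.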
